A study of Mus musculus with 9 samples.

Results

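Immediate early genes are transcribed within minutes of a stimulus without new protein synthesis, and many of them encode subunits of AP-1, a transcription factor. The 10 genes described here, picked by symbol, were Fos, Fosb, Fosl2, Jun, Junb, Maff, Egr1, Ier2, Dusp1 and Zfp36. Each matched 1 Ensembl identifier among the 34866 genes listed in the deposited tables. RNA levels came from paired-end sequencing of cultured primary macrophages of the mouse, which are phagocytes of the innate immune system. All cultures received L929-conditioned medium, a common source of macrophage colony-stimulating factor, so the cells of all 3 groups were exposed to it. The strain, age and sex of the mice and the tissue of origin are not given in the sources used here. The standard group (n = 3) spent 7 days in standard oxygen. The acute group (n = 3) had standard oxygen followed by 1% oxygen for its last 3 hours. The chronic group (n = 3) was kept at 1% oxygen throughout 7 days. The series calls the 3 samples of each group biological replicates, and whether they came from separate animals is not stated, so the p-values measure the spread between these samples only.

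AP-1 is a dimer of basic leucine zipper proteins. JUN proteins pair with each other or with FOS proteins, whereas FOS proteins need a partner, and small MAF proteins such as MAFF bind DNA with other partners and lack an activation domain of their own. EGR1 is a zinc finger transcription factor induced through serum response factor, and IER2 is a nuclear protein of the same early wave. DUSP1, a phosphatase that inactivates MAP kinases, and ZFP36 (tristetraprolin), which binds AU-rich elements and promotes the decay of cytokine mRNAs, act as brakes on the same signals. In macrophages these genes respond to microbial products, growth factors, adhesion and stress, and hypoxia is known to raise JUN and FOS activity in several cell types.

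Expression is given in TPM, a length-corrected share of a library that sums to 1000000 over all genes, so levels of different genes can be compared. The sequencing depth of the libraries is unknown, and the spread over 3 libraries is the only error available. Digits shared by the sample descriptions tie 1 library of each group together. These digits are written here as codes X, Y and Z, and their meaning is not stated. Within a group, the X and Y libraries correlated at r = 0.979 to 0.984 over genes, and the Z library correlated with them at 0.944 to 0.959. Deviations from the group means correlated at 0.378 to 0.633 in all 9 pairs of libraries of the same code. Between groups, an X with a Y library reached 0.002 to 0.325, and a Z with an X or Y library -0.532 to -0.256. From the same-code values, limma (a linear model fitted over all genes, with Benjamini-Hochberg adjusted p-values) was run unblocked and with the code as a block. Where 1 p is given for a fit of all 6 libraries, it is the unblocked one and the block left the call as it was. The threshold was an adjusted p of 0.05. Each log2 fold change was fitted on log2(TPM + 1), where a pseudocount of 1 damps low genes. Hypoxia genes followed the labels: all 8 examined had a log2 fold change above 0 in acute and in chronic against standard. Chronic against acute, 5 of the 8 were above 0, with a median of 0.50 beside 0.14 for all genes tested. Hilpda was 79.9 to 85.4 TPM in standard, 368 to 517 TPM in acute and 123 to 136 TPM in chronic libraries. Egln3 went the other way between the hypoxia groups, with 9.08 to 30.7, 110 to 231 and 514 to 562 TPM in the same order. All 8 macrophage markers examined reached 1 TPM, but C1qa was 0.91 to 3.41 TPM in the Z libraries and 65.3 to 443 TPM in the other 6. None of 6 fibroblast, 4 B cell, 4 dendritic cell and 4 mast cell or basophil markers reached 1 TPM in any library. Of 6 neutrophil markers 2 did, S100a8 and Camp, of which S100a8 was 895 to 1593 TPM in standard, 937 to 1906 TPM in acute and 258 to 582 TPM in chronic libraries and Camp at most 2.03 TPM. Of 4 T cell, 3 endothelial and 3 erythroid markers 1 each did, with summed levels of at most 1.27, 42.8 and 1.86 TPM. The endothelial one was Pecam1, at 10.8 to 24.9 TPM in standard and acute and 39.2 to 42.7 TPM in chronic libraries. The other endothelial markers, Cdh5 and Kdr, were at or below 0.815 TPM in every library. Transcripts of the mitochondrial genome held 4.41% to 5.69% of a library in standard, 4.53% to 5.34% in acute and 2.61% to 3.78% in chronic hypoxia. The part of these differences in the results below was not tested. In such bulk samples, fewer cells of a kind and less RNA per cell cannot be told apart.

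RefSeq promoter windows (build GRCm38.p6, 250 bases before to 50 after an annotated start) were found for 8 of the 10 genes, and the 250 bases before the start are printed for 4 of them. Fos, Junb and Dusp1 are shown as genes with their highest group mean in acute hypoxia, and Zfp36 as a gene lower in both hypoxia groups. Fosl2, Maff, Fosb and, by a small margin (97.1 against 97.0 TPM in chronic hypoxia), Jun also had their highest mean in acute hypoxia. Their windows are not printed, and those of Fosl2 and Jun held none of the motifs. A link between motifs and levels was not tested. Capitals mark matches on either strand to TGACG, which is part of the cAMP response element, to ACGTG or GCGTG, the core of hypoxia response elements, and to the CArG box bound by serum response factor. The Fos sequence is chr12:85473640-85473889 on the plus strand, that of Junb chr8:84978749-84978998, that of Dusp1 chr17:26508473-26508722 and that of Zfp36 chr7:28379229-28379478, these 3 on the minus strand.
Fos: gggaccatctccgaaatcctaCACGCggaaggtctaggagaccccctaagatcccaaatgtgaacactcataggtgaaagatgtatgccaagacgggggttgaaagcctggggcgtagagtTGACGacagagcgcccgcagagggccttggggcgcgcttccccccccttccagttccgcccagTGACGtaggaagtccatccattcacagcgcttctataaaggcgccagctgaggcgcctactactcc
Junb: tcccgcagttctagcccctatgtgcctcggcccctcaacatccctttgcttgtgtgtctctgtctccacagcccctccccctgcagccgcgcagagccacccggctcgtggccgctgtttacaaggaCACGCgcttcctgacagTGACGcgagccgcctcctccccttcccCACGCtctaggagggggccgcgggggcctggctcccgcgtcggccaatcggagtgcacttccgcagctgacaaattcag
Dusp1: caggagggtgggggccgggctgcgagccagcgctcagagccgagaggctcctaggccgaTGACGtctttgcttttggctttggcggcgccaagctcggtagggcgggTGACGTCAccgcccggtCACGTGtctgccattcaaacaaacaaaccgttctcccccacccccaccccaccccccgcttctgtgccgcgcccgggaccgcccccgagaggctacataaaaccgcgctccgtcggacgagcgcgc
Zfp36: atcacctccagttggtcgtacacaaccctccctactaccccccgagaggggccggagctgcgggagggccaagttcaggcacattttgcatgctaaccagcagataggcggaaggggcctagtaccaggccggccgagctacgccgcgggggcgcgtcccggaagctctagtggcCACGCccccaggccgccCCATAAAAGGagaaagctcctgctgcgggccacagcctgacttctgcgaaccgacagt

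TGACG occurred 2 times in the Fos window, 66 and 129 bases before the start, 1 time in the Junb window and 3 times in the Dusp1 window. In Dusp1, 2 of the 3 matches overlap on opposite strands in the palindrome 143 bases before the start. Of all 32851 windows of 300 bases, 20.8% held TGACG. The Zfp36 window held a CArG box, CCATAAAAGG, 58 bases before the start, as did 1.63% of all windows. ACGTG or GCGTG was in each of the 4 windows and in 43.8% of all windows, and the 2 Dusp1 matches are 1 palindrome read on both strands. The AP-1 pattern TGANTCA, present in 7.81% of all windows, was in none of the member windows, and those of Jun and Fosl2 matched none of these patterns. Longer or variant AP-1 sites were not searched, so this does not show that a window lacks an AP-1 site. Fosb had 1 TGACG match, and of the 3 Maff windows 2 had at least 1. These matches describe letters within 300 bases and are not measured binding.

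**Figure D1:**
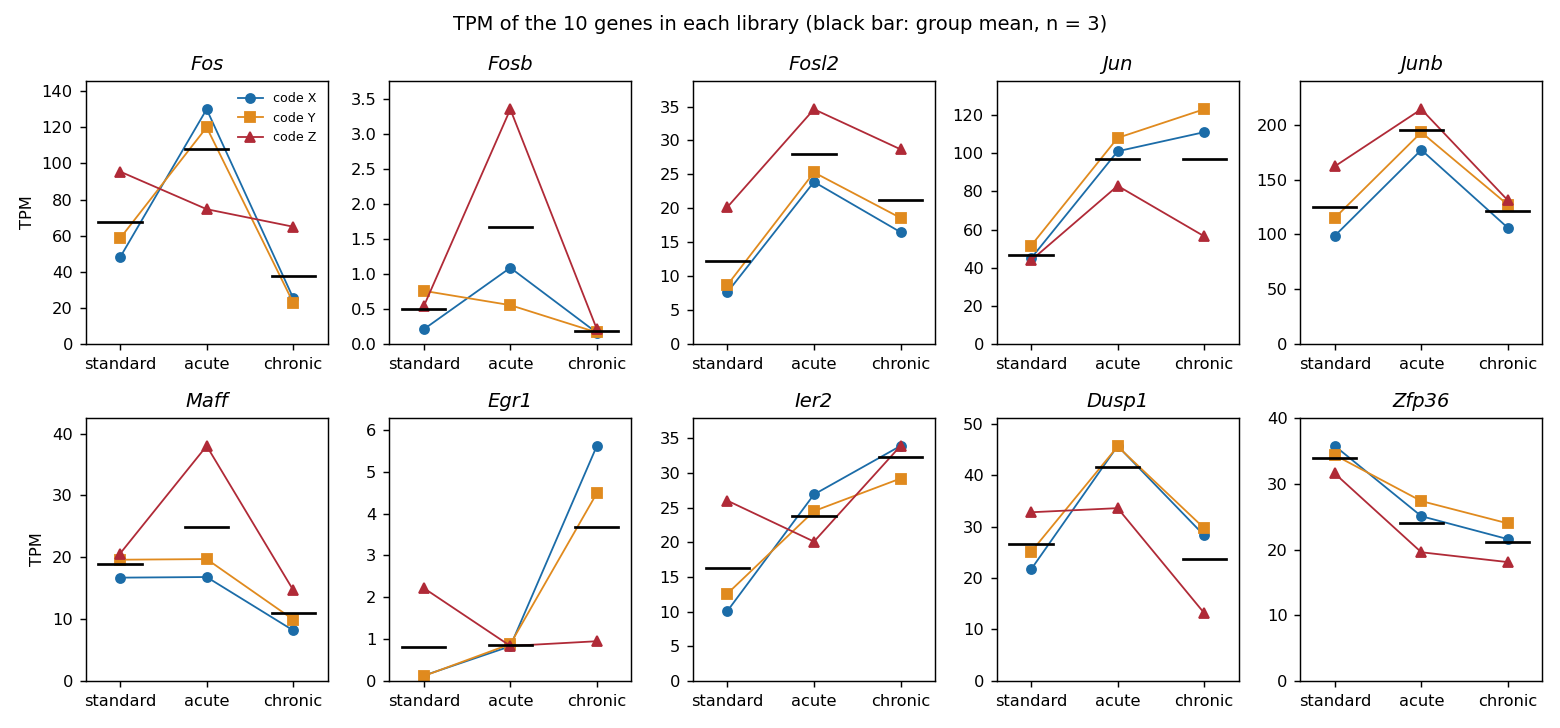
TPM of each gene (vertical axis, from 0) in standard oxygen, acute and chronic hypoxia; each point is 1 library, lines join libraries of the same code and black bars are group means. Fos, Junb and Dusp1 have their highest mean in acute hypoxia, Jun is high in both hypoxia groups except in the chronic Z library, and Zfp36 and Maff are lowest in chronic hypoxia.

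Junb was the most abundant of the 10 genes in each group mean, with 125 ± 33.1 TPM in standard, 195 ± 18.9 in acute and 121 ± 13.5 in chronic hypoxia (SD, n = 3). Fos was next in standard and acute hypoxia and Jun in chronic hypoxia, and Fos and Jun overlapped in all 3 groups. Fosl2, Ier2, Dusp1, Zfp36 and Maff had group means between 10.9 and 41.6 TPM, and Egr1 and Fosb were at or below 3.69 TPM in every group mean. The summed level of the 10 genes was 284 to 436 TPM in standard, 522 to 565 TPM in acute and 357 to 389 TPM in chronic libraries. Every acute sum thus lay above every standard and chronic sum, whereas the standard and chronic ranges overlapped.

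In acute against standard, levels were higher for Fosl2, Jun, Junb and Dusp1 in all 3 acute libraries than in any standard library, and lower for Zfp36. These are 4 of the 9 tested genes in a higher direction, where 7.63% of all tested genes were higher without overlap, and 1 in a lower direction, where 4.85% were. Of the 9 tested genes, 0 passed in unblocked limma and 5 had an unadjusted p under 0.05. The background was 0.0273% of 10987 genes called and 7.14% at that unadjusted p. Blocked by code, Jun was higher, beside 0.655% of all genes, and 0 members were lower, beside 0.0546%. Rescaling the libraries by median of ratios in that fit left 1 higher, beside 0.446%, and 0 lower, beside 0.0455%. Entering all 9 samples in the fit without rescaling called 4 (Fosl2, Jun, Junb and Zfp36), beside 1.87%. The members tested had a median log2 fold change of 0.66, and all tested genes 0.01. Egr1 was below the mean of 1 TPM required for the test. Fosb, which is counted in the 9 and in the median, passed it only through its acute libraries, so its direction is a description with no test.

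Chronic against standard, the members were split. Jun and Ier2 were higher in all chronic than in all standard libraries, as were 24.2% of all tested genes, and Zfp36 and Maff were lower in all chronic libraries, as were 5.39%. After rescaling, the Jun libraries overlapped. In unblocked limma 0 of the 9 tested passed and 4 had an unadjusted p under 0.05, where 2.69% of 11067 genes were called and 22.9% had such a p. Blocked by code, 3 were higher (Fosl2, Jun and Ier2), beside 15.1% of all genes, and 3 lower (Fos, Zfp36 and Maff), beside 3.3%. The members' median log2 fold change was -0.02 against 0.16 for all genes tested. Rescaling brought the median over all genes to -0.002 and left 1 higher in the blocked fit (Fosl2), beside 5.53%, and 3 lower (Fos, Zfp36 and Maff), beside 5.92%. With all 9 samples in the blocked fit 5 were called, beside 26.3%, all of the 6 but Fos. Fosb was not tested because of its low level, and Egr1 passed the filter only through its chronic libraries.

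Between chronic and acute hypoxia most members were lower in the chronic libraries. Fos, Junb, Dusp1 and Maff were lower without overlap, where 5.5% of all tested genes were, and Ier2 was higher without overlap, where 22.3% were. Egr1 was also higher without overlap, but it passed the filter only through its chronic libraries, which favours a higher chronic mean. Its direction is therefore a description with no test. After rescaling, Ier2 and Egr1 overlapped and Fosl2 was lower without overlap. In unblocked limma 0 of the 9 tested passed and 6, Egr1 among them, had an unadjusted p under 0.05, beside 0.695% called and 20.8% at that p among 11087 genes. Blocked by code, 4 were lower (Fosl2, Junb, Dusp1 and Maff) beside 3.42% of all genes, and 0 were higher, beside 12.1%. With rescaling added the same number were lower, 4, beside 5.07%, and 0 higher, beside 4.73%, so that the background no longer leaned to higher calls. With all 9 samples 3 were called (Fos, Junb and Maff), beside 22.2%. The members' median log2 fold change was -0.40 against 0.14 for all genes tested. Both comparisons against standard oxygen share the standard libraries, and both comparisons of chronic hypoxia share the chronic libraries.

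**Figure D2:**
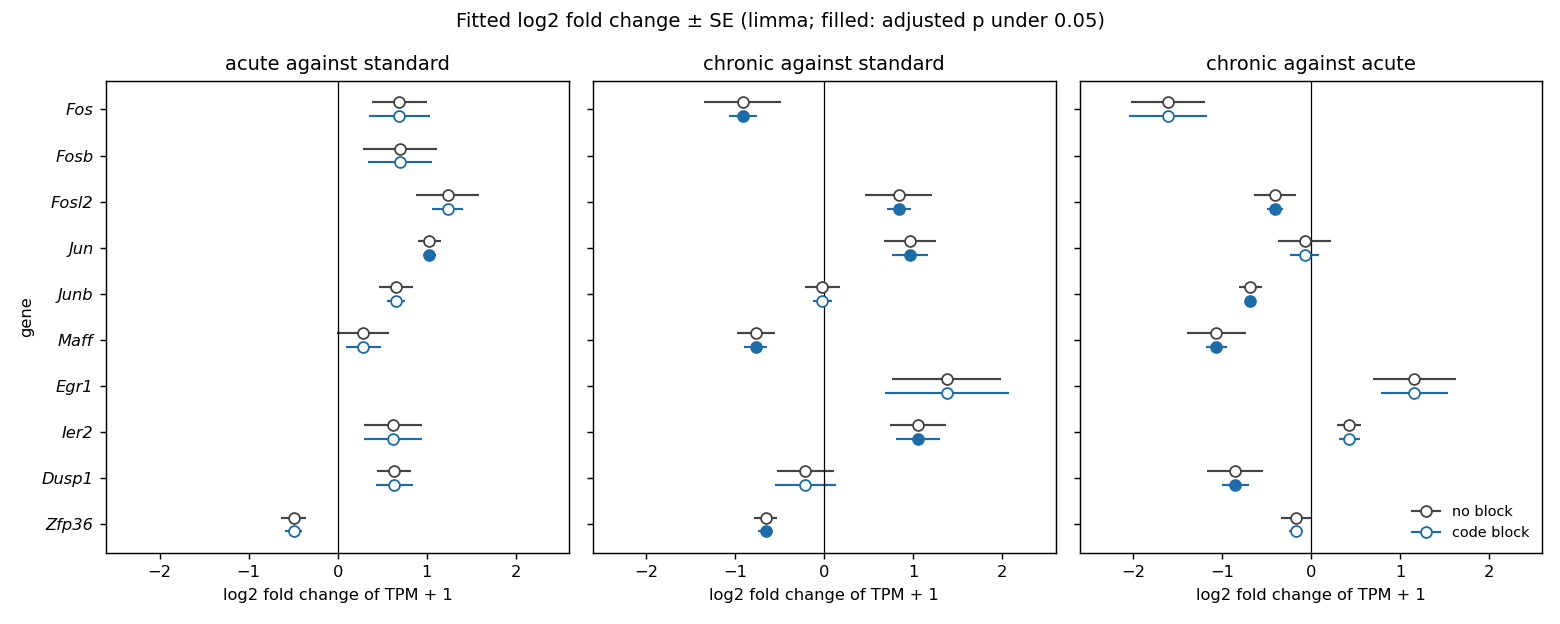
Fitted log2 fold change of TPM + 1 with its SE (horizontal axis) for each gene in the 3 comparisons, from unblocked limma (grey) and limma blocked by code (blue); filled points have an adjusted p under 0.05. No grey point is filled, and the filled blue points are 1 in acute against standard, 6 in chronic against standard and 4 in chronic against acute; a gene with no point was below the filter in that comparison.

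Among the FOS genes, Fos itself (ENSMUSG00000021250), the founding member of the family, was 48.1, 58.6 and 95.5 TPM in the standard libraries of codes X, Y and Z. It was 130, 120 and 74.7 TPM in the acute libraries and 25.6, 23.0 and 65.0 TPM in the chronic libraries in the same order. The X and Y libraries were high in acute and low in chronic hypoxia, whereas the Z libraries stepped down from standard to acute to chronic. The log2 fold change in acute against standard was 0.69 ± 0.306 (SE), limma adjusted p 0.73 unblocked and 0.438 blocked by code. In chronic against standard it was -0.92 ± 0.434 (SE), adjusted p 0.265 unblocked. Blocking by code gave an SE of 0.156 and an adjusted p of 0.0251, or 0.131 when all 9 samples entered that fit. Fos thus fell in the blocked fit of the 6 libraries and missed the threshold in the other 2 of these fits. In chronic against acute the log2 fold change was -1.61 ± 0.417 (SE), adjusted p 0.112 unblocked and 0.0651 blocked, and 0.03 blocked with all 9 samples. Unblocked, it was -2.07 without the chronic Z library (chronic replicate 3), adjusted p 0.0302, the 1 of 6 single omissions that passed. Fos was lower in chronic than in standard and acute libraries in 3 of 3 codes. Without both Z libraries, the log2 fold change of Fos was 1.22 in acute against standard (limma adjusted p 0.0167), -1.10 in chronic against standard (0.00746) and -2.31 in chronic against acute (0.00155). Those fits called 2.95%, 21.1% and 16.3% of all genes in the same order. Without both X or both Y libraries, the log2 fold change of Fos was 0.34 or 0.53 in acute and -0.93 or -0.72 in chronic against standard. None of these values passed the threshold.

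Fosl2 (ENSMUSG00000029135), which encodes FRA2, a FOS protein without a strong activation domain, was 7.66, 8.73 and 20.2 TPM in standard libraries X, Y and Z. It was 23.9, 25.3 and 34.6 TPM in acute and 16.5, 18.6 and 28.7 TPM in chronic libraries. In each code the order was standard, chronic, acute from low to high, on a higher level in code Z. Acute against standard, the log2 fold change of Fosl2 was 1.24 ± 0.351 (SE), limma adjusted p 0.445 unblocked, 0.0771 blocked and 0.0125 blocked with all 9 samples. Chronic against standard, it was 0.84 ± 0.376 (SE), adjusted p 0.245, 0.0237 and 0.00896 in the same order. Fosl2 therefore rose in chronic hypoxia once the code was a term of the fit. Chronic against acute, the log2 fold change was -0.40 ± 0.236 (SE), adjusted p 0.382, 0.0432 and 0.0962.

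Fosb (ENSMUSG00000003545), the remaining FOS gene of the set, was 0.213, 0.761 and 0.541 TPM in standard, 1.09, 0.557 and 3.35 TPM in acute and 0.163, 0.168 and 0.215 TPM in chronic libraries. The acute Z library stood above the rest, and each chronic library was below each acute one. Its log2 fold change in acute against standard was 0.70 ± 0.419 (SE). This is a description with no test, since Fosb passed the filter of 1 TPM only through its acute libraries. At these levels the log2(TPM + 1) scale understates a change.

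Of the JUN genes, Jun (ENSMUSG00000052684), the main partner of FOS in AP-1, was 45, 51.6 and 43.9 TPM in standard libraries X, Y and Z. It was 101, 108 and 82.9 TPM in acute and 111, 123 and 56.5 TPM in chronic libraries. All hypoxia libraries lay above all standard libraries, and the chronic Z library was the lowest of the 6. Jun rose in acute against standard when blocked by code: the log2 fold change was 1.03 ± 0.128 (SE), limma adjusted p 0.0683 unblocked and 0.0166 blocked, where the SE was 0.0754. Within codes the difference of log2(TPM + 1) was 1.15, 1.05 and 0.902. In chronic against standard the log2 fold change was 0.96 ± 0.289 (SE), adjusted p 0.124 unblocked, 0.039 blocked and 0.0742 blocked with rescaling. Leaving out the chronic Z library gave 1.31, adjusted p 0.0115 unblocked, where 4.32% of all genes passed. It was the 1 of 6 single omissions in which Jun passed. The Jun response was thus steadier over codes in acute than in chronic hypoxia, where the within-code differences were 1.29, 1.24 and 0.355. Chronic and acute libraries of Jun differed by a log2 fold change of -0.07 ± 0.297 (SE), less than the spread between replicates. In GENCODE M21, 232 exonic bases of Jun overlap Junos on the opposite strand.

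Junb (ENSMUSG00000052837), a JUN protein with weaker activity on many AP-1 sites, was 98.7, 115 and 162 TPM in standard libraries. It was 177, 193 and 214 TPM in acute and 106, 127 and 131 TPM in chronic libraries. The acute libraries lay above all others, and standard and chronic libraries overlapped. Acute against standard, the log2 fold change of Junb was 0.66 ± 0.191 (SE), limma adjusted p 0.466 unblocked, 0.088 blocked by code and 0.0271 blocked with all 9 samples. Chronic against acute it was -0.68 ± 0.126 (SE), adjusted p 0.0656 unblocked and 0.0108 blocked. After rescaling that log2 fold change was -0.84, adjusted p 0.0355 unblocked. Of the unblocked settings over these 6 libraries, rescaling was the 1 that called a member. In chronic against standard it was -0.02 ± 0.197 (SE), adjusted p 0.962. In the same annotation 173 exonic bases of Junb overlap Prdx2, and 125 of Zfp36 overlap Gm44710, also on the opposite strand. Whether the counting used strand is not given in the sources used here, so reads in those bases cannot be assigned with certainty.

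Differences within codes showed how far the libraries of one code moved together. In acute against standard 5 of the 9 tested members were higher in 3 of 3 codes (Fosl2, Jun, Junb, Dusp1 and Maff), where 20.9% of all tested genes were. Zfp36 was lower in 3 of 3 codes, where 16.9% of genes were. In chronic against standard Fosl2, Jun and Ier2 were higher in 3 of 3 codes (46.9% of all genes) and Fos, Zfp36 and Maff were lower (12.6%). After rescaling Maff left the former 5, and Junb joined the genes lower in chronic than in standard libraries in 3 of 3 codes. In chronic against acute 6 were lower in 3 of 3 codes (12.9% of all genes) and 2, Ier2 and the filter-dependent Egr1, were higher (43.5%).

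**Figure D3:**
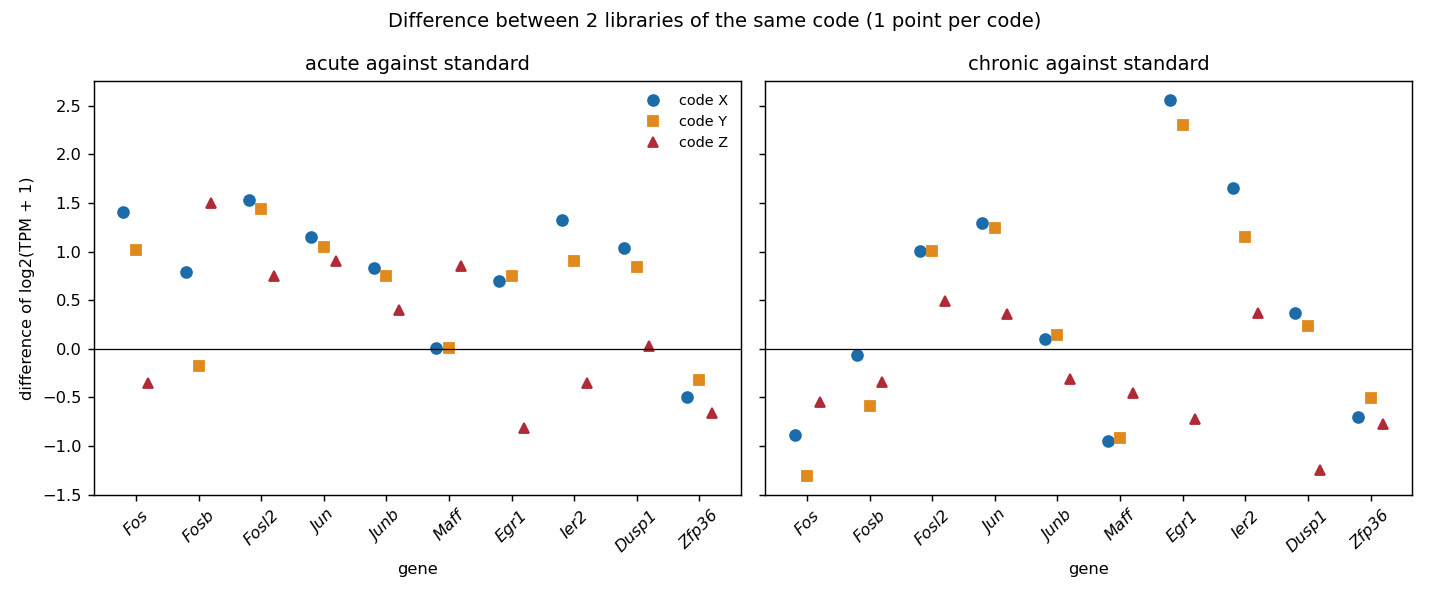
Difference of log2(TPM + 1) between the hypoxia and the standard library of the same code (vertical axis; 1 point per code and gene), acute on the left and chronic on the right. In acute hypoxia the X and Y points of Fos and Ier2 lie above 0.9 and the Z points at about -0.35, and in chronic hypoxia the Z points of Egr1 and Dusp1 are negative where X and Y are positive.

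The make-up of both AP-1 families was described with Fosl1 and Jund added. Fos held 76.6% ± 1.98 of the summed FOS-family TPM in standard, 65.6% ± 15.7 in acute and 57.1% ± 5.20 in chronic hypoxia (SD, n = 3). Fosl2 held 13.2% ± 2.19, 17.2% ± 4.26 and 35.4% ± 7.27 in the same order. The FOS family in chronic libraries therefore contained a larger share of Fosl2 (27.5% to 41.9%) than any standard library (11.7% to 15.7%) or acute library (13.8% to 22.0%). The FOS-family sum was 62.4 to 128 TPM in standard, 157 to 173 TPM in acute and 44.3 to 104 TPM in chronic libraries. Jun held 11.5% ± 1.43 of the JUN-family TPM in standard, 18.6% ± 4.66 in acute and 23.3% ± 6.50 in chronic hypoxia (SD, n = 3). Jund, a JUN gene that is expressed without a stimulus, held 53.7% to 61.6% in standard, 40.9% to 52.5% in acute and 44.1% to 48.1% in chronic libraries. Each hypoxia library thus had a larger Jun share and a smaller Jund share than each standard library.

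**Figure D4:**
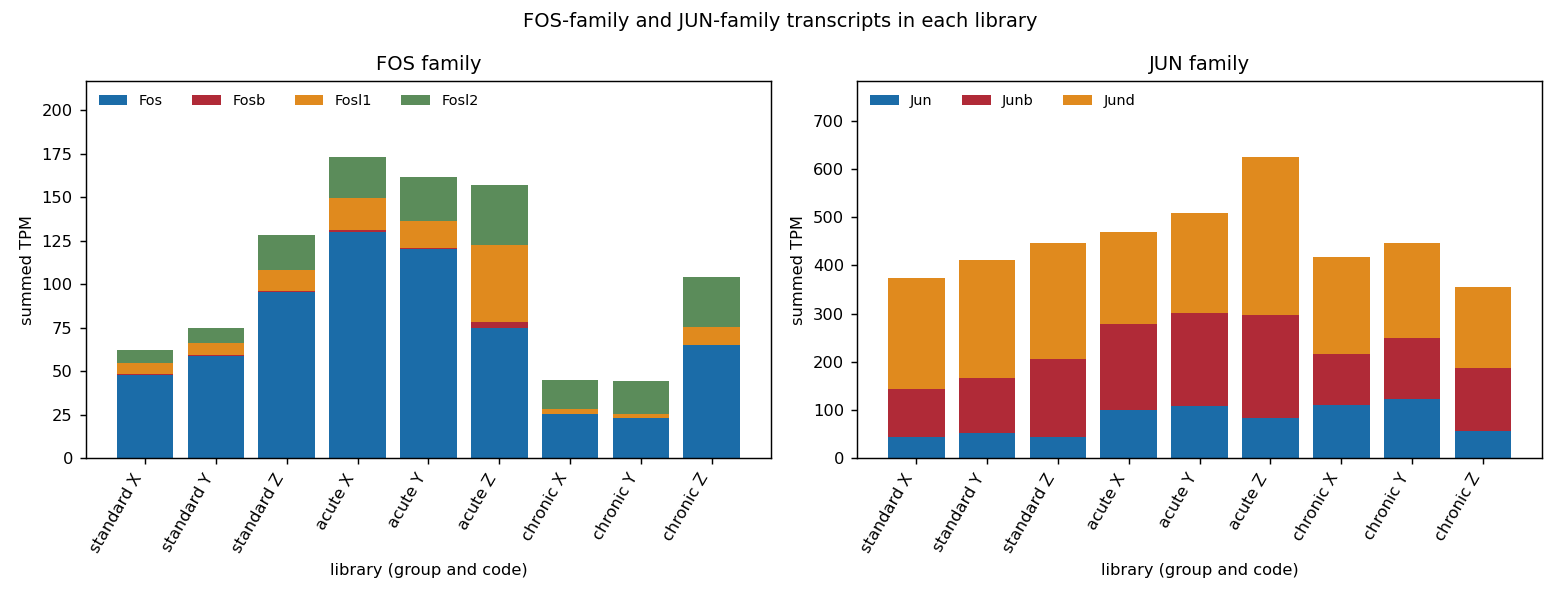
Summed TPM (vertical axis, from 0) of the FOS family (left) and the JUN family (right) in each library, stacked by gene. The acute FOS-family sums of 157 to 173 TPM exceed all others, and Fosl2 fills a larger part of the chronic bars.

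Maff (ENSMUSG00000042622), a small MAF gene, was 16.7, 19.6 and 20.6 TPM in standard libraries X, Y and Z. It was 16.8, 19.7 and 38.0 TPM in acute and 8.17, 9.93 and 14.7 TPM in chronic libraries. The chronic libraries lay below all others, and of the acute libraries the Z library alone stood above its standard partner by more than 0.02 on the log2 scale. Maff fell in chronic against standard when blocked by code: the log2 fold change was -0.77 ± 0.214 (SE), limma adjusted p 0.11 unblocked and 0.0244 blocked. Leaving out the chronic Z library gave -0.99, adjusted p 0.0322 unblocked, where 4.32% of all genes passed. That was the 1 of 6 single omissions in which Maff passed. Chronic against acute the log2 fold change of Maff was -1.06 ± 0.336 (SE), adjusted p 0.157 unblocked and 0.0122 blocked. Maff was therefore lower after chronic hypoxia than in both other groups in the blocked fits. In acute against standard it was 0.29 ± 0.291 (SE), adjusted p 0.997, and without the acute Z library (acute replicate 3) it was -0.05.

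Egr1 (ENSMUSG00000038418) and Ier2 (ENSMUSG00000053560), the nuclear early genes outside AP-1, both had their highest mean in chronic hypoxia. Egr1 was 0.127, 0.117 and 2.22 TPM in standard, 0.829, 0.881 and 0.836 TPM in acute and 5.62, 4.49 and 0.949 TPM in chronic libraries. Its X and Y libraries stepped up from standard to chronic, and in code Z the standard library was the highest. The log2 fold change of Egr1 in chronic against standard was 1.38 ± 0.61 (SE), and 2.43 without both Z libraries. Chronic against acute it was 1.16 ± 0.462 (SE), and 1.71 without the chronic Z library. These are descriptions with no test, since Egr1 passed the filter of 1 TPM only through its chronic libraries in both comparisons.

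Ier2 was 10.1, 12.6 and 26.0 TPM in standard, 26.9, 24.5 and 20.1 TPM in acute and 33.9, 29.2 and 33.9 TPM in chronic libraries. The chronic libraries lay above all others, and the standard Z library lay within the acute range. The log2 fold change of Ier2 in chronic against standard was 1.05 ± 0.319 (SE), limma adjusted p 0.126 unblocked, 0.0495 blocked and 0.0886 blocked with rescaling. Without the standard Z library (standard replicate 2) it was 1.43, adjusted p 0.0119 unblocked, where 4.74% of all genes passed. Of 6 single omissions this was the 1 in which Ier2 passed. The standard Z library was thus the one that most narrowed the difference. In acute against standard the log2 fold change of Ier2 was 0.62 ± 0.327 (SE), adjusted p 0.831. It was 1.11 without both Z libraries (adjusted p 0.0263), where 2.95% of all genes passed. Without both X or both Y libraries it was 0.275 or 0.484, neither past the threshold.

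Of the feedback genes, Dusp1 (ENSMUSG00000024190) was 21.7, 25.1 and 32.8 TPM in standard libraries X, Y and Z. It was 45.7, 45.6 and 33.6 TPM in acute and 28.3, 29.7 and 13.2 TPM in chronic libraries. The acute libraries lay above all others, the Z library by 0.0321 in log2(TPM + 1) over its standard partner. Acute against standard, the log2 fold change of Dusp1 was 0.64 ± 0.191 (SE), limma adjusted p 0.487 unblocked and 0.293 blocked. Without both Z libraries it was 0.94, adjusted p 0.0186, where 2.95% of all genes passed. Without both X or both Y libraries it was 0.435 or 0.536. Dusp1 passed in acute against standard in no setting run but the one without both Z libraries. Chronic against acute it was -0.85 ± 0.314 (SE), adjusted p 0.201 unblocked, 0.0267 blocked and 0.0721 blocked with all 9 samples. In chronic against standard it was -0.22 ± 0.322 (SE), which became 0.30 without both Z libraries, neither past the threshold.

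Zfp36 (ENSMUSG00000044786) was 35.8, 34.4 and 31.6 TPM in standard, 25.1, 27.4 and 19.6 TPM in acute and 21.6, 24.0 and 18.1 TPM in chronic libraries. All hypoxia libraries lay below all standard libraries, and the acute and chronic libraries overlapped. Acute against standard, the log2 fold change of Zfp36 was -0.49 ± 0.141 (SE), limma adjusted p 0.455 unblocked, 0.136 blocked and 0.0415 blocked with all 9 samples. Chronic against standard it was -0.66 ± 0.131 (SE), adjusted p 0.0555, 0.0165 and 0.0029 in the same order. Zfp36 thus fell in chronic hypoxia in the blocked fits. Zfp36 and Dusp1, both brakes on early signals, thus differed in direction in acute hypoxia, clearly in codes X and Y. In code Z the Dusp1 difference was 0.0321 in log2(TPM + 1), close to no change. Neither gene passed in acute against standard in the unblocked or blocked fit of the 6 libraries. Of the 75-base stretches of the longest Zfp36 transcript, 1.03% also occur in another listed gene, and for the other 9 genes the share was 0.

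Of 11 other AP-1 family genes 9 were tested, and in unblocked limma 0 passed in any comparison, with 2 at an unadjusted p under 0.05 in each. At that p were 7.14%, 22.9% and 20.8% of all genes in acute against standard, chronic against standard and chronic against acute. Blocked by code, 1 was higher in acute against standard (0.655% of all genes) and 1 lower in chronic against standard (3.3%). In chronic against acute 1 was higher (12.1%) and 2 lower (3.42%). With rescaling added these were 0 higher (0.446%), 2 lower (5.92%), and 1 higher (4.73%) and 2 lower (5.07%). Fosl1, which encodes the FOS protein FRA1, was 6.45, 6.74 and 12.1 TPM in standard libraries X, Y and Z. It was 18.3, 15.7 and 44.7 TPM in acute and 2.68, 2.55 and 10.3 TPM in chronic libraries. Within each code the acute library was the highest and the chronic library the lowest. Acute against standard, Fosl1 had a log2 fold change of 1.43 ± 0.419 (SE), limma adjusted p 0.472 unblocked, 0.0439 blocked by code and 0.0551 blocked with rescaling. Chronic against acute it was -2.21 ± 0.564 (SE), adjusted p 0.11 unblocked and 0.00509 blocked. Chronic against standard it was -0.78 ± 0.488 (SE), the lowest of the list, adjusted p 0.385 and 0.0637. Fos had the same order of groups in codes X and Y. Atf3, a stress-induced partner of JUN proteins, was 278 ± 42.2 TPM in standard and 182 ± 18.4 TPM in chronic hypoxia (SD, n = 3). Between these groups the log2 fold change of Atf3 was -0.60 ± 0.147 (SE), limma adjusted p 0.086 unblocked and 0.0142 blocked. Maf, a large MAF gene, had the highest log2 fold change of this list in both comparisons of chronic hypoxia, 0.72 ± 0.562 (SE) against standard and 0.83 ± 0.679 (SE) against acute, with adjusted p-values of 0.488 and 0.528 unblocked and 0.0613 and 0.00969 blocked. Mafk had the lowest in acute against standard, -0.27 ± 0.185 (SE), adjusted p 0.94.

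Of 34 other immediate early genes 24 were tested, and Egr4 and Ccn1 were listed at 0 in all libraries. In chronic against standard 2 were higher (Dusp6 and Zfp36l1) and 3 lower (Dusp4, Gadd45b and Plk3) in unblocked limma, where 2.69% of all genes were called. In the other 2 comparisons 0 passed. At an unadjusted p under 0.05 were 11 in acute against standard (7.14% of all genes) and 10 in chronic against acute (20.8%). Blocked by code, 1 was higher in acute against standard (0.655% of all genes). In chronic against standard 5 were higher (15.1%) and 4 lower (3.3%), and in chronic against acute 3 higher (12.1%) and 5 lower (3.42%). With rescaling added, 3 were higher (5.53%) and 4 lower (5.92%) in chronic against standard. In chronic against acute 0 were then higher (4.73%) and 5 lower (5.07%). Dusp6, a cytoplasmic ERK phosphatase, was 71.8 to 104 TPM in standard, 131 to 166 TPM in acute and 174 to 181 TPM in chronic libraries. It rose in chronic against standard by a log2 fold change of 1.10 ± 0.153 (SE), limma adjusted p 0.0275. Dusp4, a nuclear relative, was 20.7 to 28.8 TPM in standard and 9.94 to 11.8 TPM in chronic libraries, and its log2 fold change was -1.09 ± 0.153 (SE), limma adjusted p 0.0276. Dusp4 was also the lowest of the list in chronic against acute, -1.18 ± 0.242 (SE), adjusted p 0.0787 unblocked and 0.0144 blocked. The MAP kinase phosphatase genes of the early class, Dusp1 included, thus did not share 1 direction in chronic against standard libraries.

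Zfp36l1, the closest relative of Zfp36 in this list together with Zfp36l2, was 5.62 to 12.8 TPM in standard, 7.39 to 15.9 TPM in acute and 26.0 to 60.3 TPM in chronic libraries. It rose in chronic against standard by a log2 fold change of 2.22 ± 0.378 (SE), limma adjusted p 0.0406, the opposite sign to that of Zfp36. Chronic against acute it was 1.93 ± 0.373 (SE), adjusted p 0.0687 unblocked and 0.0354 blocked. Gadd45b, a stress gene upstream of p38, was 39.1 to 56.9 TPM in standard and 13.0 to 14.3 TPM in chronic libraries, with a log2 fold change of -1.77 ± 0.154 (SE), limma adjusted p 0.0077. It was also the lowest of the list in acute against standard, -1.05 ± 0.407 (SE), adjusted p 0.657. Plk3, a stress-response kinase gene, was 23.4 to 24.1 TPM in standard and 7.88 to 9.67 TPM in chronic libraries, and had a log2 fold change of -1.31 ± 0.116 (SE), limma adjusted p 0.0077. All 3 genes that fell therefore lay below every standard library in all chronic libraries. Ier3 had the highest log2 fold change of the list in acute against standard, 2.02 ± 0.433 (SE), from 16.3, 15.2 and 44.0 TPM to 77.2, 77.9 and 135 TPM in codes X, Y and Z. Its limma adjusted p was 0.248 unblocked and 0.0175 blocked. The acute libraries of Ier3 lay above all standard libraries.

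Upstream of these genes, 21 kinases and factors were tested. Map2k1, the ERK kinase MEK1, was higher in chronic than in standard libraries, 115 to 127 against 70.5 to 82.2 TPM, where its log2 fold change was 0.65 ± 0.0994 (SE), limma adjusted p 0.0354. It was the 1 gene of this list that passed unblocked, beside 2.69% of all genes, and 8 had an unadjusted p under 0.05, beside 22.9%. Blocked by code, 6 were higher (15.1% of all genes) and 0 lower (3.3%) in chronic against standard. In chronic against acute 4 were higher (12.1%) and 1 lower (3.42%). With rescaling added, 2 were higher (5.53%) and 1 lower (5.92%) in chronic against standard. In chronic against acute 0 were then higher (4.73%) and 1 lower (5.07%), so the lean to higher calls did not hold under that scaling. Elk4, a partner of serum response factor, had the highest log2 fold change of the list in chronic against standard, 0.86 ± 0.183 (SE), adjusted p 0.0648 unblocked and 0.0279 blocked. Elk4 was also highest in acute against standard, 0.71 ± 0.216 (SE), limma adjusted p 0.497. Mapkapk2, a kinase below p38, was lowest there, -0.27 ± 0.136 (SE), adjusted p 0.816. Map2k4, a JNK kinase gene, was lowest in chronic against standard, -0.24 ± 0.103 (SE), limma adjusted p 0.235. It was also lowest in chronic against acute, -0.37 ± 0.0951 (SE), adjusted p 0.109 unblocked and 0.0363 blocked. Rps6ka3, a kinase below ERK, was highest in chronic against acute, 0.53 ± 0.126 (SE), adjusted p 0.0981 unblocked and 0.0301 blocked. In acute against standard and in chronic against acute 0 passed unblocked. At an unadjusted p under 0.05 were 4 and 6, beside 7.14% and 20.8% of all genes.

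Among 11 mRNAs known to be bound by ZFP36, of which Ier3 is also an immediate early gene, 7 were tested. Unblocked, 1 of them was lower in chronic against standard, where 2.69% of all genes were called, and 0 passed in the other comparisons. At an unadjusted p under 0.05 were 3 in acute against standard (7.14% of all genes) and 1 in chronic against acute (20.8%). Blocked by code, 1 was higher and 1 lower in acute against standard (0.655% and 0.0546% of all genes). The same counts held in chronic against standard (15.1% and 3.3%), and 1 was higher in chronic against acute (12.1%). With rescaling added, 0 were higher (5.53%) and 2 lower (5.92%) in chronic against standard. Ccl3, a chemokine gene, was 650, 594 and 1015 TPM in standard, 196, 167 and 392 TPM in acute and 317, 267 and 233 TPM in chronic libraries. Its log2 fold change was -1.64 ± 0.356 (SE) in acute and -1.43 ± 0.227 (SE) in chronic against standard, with limma adjusted p-values of 0.252 and 0.0366 unblocked, and 0.0117 and 0.0231 blocked. Ccl3 thus fell in chronic hypoxia in both forms of the fit, beside lower levels of Zfp36. Ier3 was the highest of this list in both comparisons against standard, with 1.67 ± 0.400 (SE) in the chronic one, adjusted p 0.0826. Tnf was 118 to 256 TPM in standard, 66.8 to 98.2 TPM in acute and 93.4 to 133 TPM in chronic libraries. In chronic against acute it had the highest log2 fold change of the list, 0.49 ± 0.201 (SE), adjusted p 0.234 unblocked and 0.0165 blocked. Il10 had the lowest, -0.82 ± 0.465 (SE). This is a description with no test, since Il10 passed the filter only through its acute libraries, with a mean of 0.721 TPM in chronic hypoxia. The list's median log2 fold change was -0.02 in acute and -0.03 in chronic against standard, beside 0.01 and 0.16 for all genes tested. Of 7 heat shock genes, signs of cell stress or handling, 6 were tested and 0 passed in unblocked limma in any comparison. At an unadjusted p under 0.05 were 1 in acute against standard (7.14% of all genes), 1 in chronic against standard (22.9%) and 2 in chronic against acute (20.8%). Hspa1b, an inducible HSP70 gene, was 4.56 to 5.70 TPM in acute and 1.34 to 2.51 TPM in chronic libraries. Chronic against acute, its log2 fold change was -1.11 ± 0.203 (SE), limma adjusted p 0.0654 unblocked and 0.0169 blocked. Hspa1b was the highest of the list in acute against standard, 0.64 ± 0.313 (SE), and the lowest in chronic against standard, -0.47 ± 0.346 (SE), limma adjusted p 0.798 and 0.461. Hspa1a, its near-identical copy, was the lowest in acute against standard (0.27 ± 0.22 SE, adjusted p 0.973), and reads of this pair may be split between the copies. Hspa8, the constitutive form, was the highest in chronic against standard and against acute, 0.42 ± 0.281 and 0.01 ± 0.152 (SE), limma adjusted p 0.416 and 0.985. Blocked by code, 1 heat shock gene was lower in chronic against acute, beside 3.42% of all genes, and 0 passed in the other comparisons. With rescaling added 3 of the 6 were lower in chronic against acute, beside 5.07%, with a list median of -0.46 and 0 genes above 0. The Hspa1b level was thus lower in chronic than in acute libraries, as were those of Fos, Junb, Dusp1 and Maff, and its part in these results was not tested.

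Over the 9 libraries the members did not share 1 profile. On the log2(TPM + 1) scale the most alike pairs were Fosb with Maff (Pearson r = 0.84) and Fosl2 with Junb (0.80), and the least alike was Fosl2 with Zfp36 (-0.78). These values share the code structure of the libraries and are a description. Among 7009 other genes with a mean of at least 10 TPM, the 5 most like the mean standardized profile of the 9 members above 1 TPM were Tnfrsf21 (r = 0.949), Plin2 (0.927), Slc27a4 (0.913), Ino80c (0.901) and Tmem127 (0.897). Plin2, a lipid droplet coat gene, was 1310 to 1670 TPM in standard, 2070 to 2420 TPM in acute and 1510 to 1800 TPM in chronic libraries. The 5 most like Fos were Rnf183 (0.971), Gna15 (0.924), Naip2 (0.924), Elp5 (0.915) and 4931406C07Rik (0.909).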

How the data were processed

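Gene levels were deposited by the authors as TPM, in 3 tables of 6 samples, 1 table for each pair of groups. Per the submitters' processing notes FastQC, STAR, featureCounts and the build GRCm38 were used. Versions, the annotation and the step from counts to TPM are not given in the sources used here. Each library held identical values in both of its tables. TPM keeps no depth, so no count test was used. Symbols matched 34582 of 34866 identifiers.

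Each comparison was fitted on its 6 libraries with limma 3.58.1 in R 4.3.3 (lmFit, eBayes with trend, two-sided) on log2(TPM + 1), over genes with a mean of at least 1 TPM. P-values were adjusted by Benjamini-Hochberg over all genes tested, and a fold change understates low genes on this scale. The unblocked fit of chronic against standard was tested on simulated data without code structure, and the blocked fit was not. All 9 samples in 1 blocked fit was an alternative chosen after seeing the data. Other alternatives were other pseudocounts, filters and scalings, all 9 samples in 1 fit, replicate blocks, and leaving out libraries. The codes come from digits shared by the sample descriptions, and all 9 same-code pairs correlated above 0.1 (0.378 to 0.633), so that they were taken to pair the libraries. The title numbers did not (-0.515 to 0.633). Between groups, X with Y pairs reached up to 0.325, so the limit of 0.1 does not by itself tell code X from code Y. The lowest same-code value, 0.378, lay above these. Named genes were all members and, per companion list, the genes that passed unblocked, the highest and lowest in each comparison, and the 5 genes most like the members' mean profile and Fos. Atf3, Jund, Hilpda, Egln3, C1qa, S100a8 and Pecam1 were chosen after their values were seen. The members and lists were chosen with earlier results of these data known. Promoter windows are from RefSeq, gene models from GENCODE M21.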

Additional observations from a re-analysis of the deposited data

Results flagged for a closer look

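For 4 genes chronic and acute libraries differed in limma with the code block, though not in unblocked limma. The log2 fold change was -0.402 for Fosl2, -0.68 for Junb, -0.852 for Dusp1 and -1.062 for Maff, each lower in the chronic library in 3 of 3 codes. Their adjusted p-values with the block were 0.0432, 0.0108, 0.0267 and 0.0122, and without a block 0.382, 0.0656, 0.201 and 0.157. With all 9 samples in the blocked fit Fosl2 (0.0962) and Dusp1 (0.0721) missed the threshold, and Junb (0.00639) and Maff (0.00727) passed. For Maff (-1.062) the acute library was above the standard library in 3 of 3 codes and the chronic library below it in 3 of 3. The acute differences in codes X and Y were 0.0108 and 0.00968 on the log2(TPM + 1) scale, and after rescaling that of code X was -0.0361.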

How the results depend on the processing

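Beside 27 tested log2 fold changes of members, 436 alternative values kept direction and side of the threshold, 63 kept the direction and passed, and 9 changed sign. The latter were Maff in acute against standard (-0.05 without acute replicate 3, range -0.05 to 0.515), Junb in chronic against standard (0.18 without standard replicate 2, 0.073 without chronic replicate 1, 0.121 without code Z, lowest -0.176), Dusp1 in the same comparison (0.144 without chronic replicate 3, 0.303 without code Z, lowest -0.412) and Jun in chronic against acute (0.007 without acute replicate 2, 0.275 without chronic replicate 3, 0.167 without code Z, lowest -0.28). In each of these 4 the value also missed the threshold in every setting. Calls follow for acute against standard, chronic against standard and chronic against acute in this order, as members and as a percent of all genes tested. Unblocked limma gave 0, 0 and 0 members and 0.0273%, 2.69% and 0.695% of genes. With the replicate block by code these were 1, 6 and 4 members and 0.71%, 18.4% and 15.5%, with rescaling added 1, 4 and 4 members and 0.491%, 11.4% and 9.8%, and with all 9 samples in that fit 4, 5 and 3 members and 1.87%, 26.3% and 22.2%. Leaving out the samples of code Z gave 6, 7 and 6 members (Egr1, which rests on the filter, among the 7 and the last 6) and 2.95%, 21.1% and 16.3%, whereas leaving out code X gave 0%, 0.00899% and 0.00898% and code Y 0%, 0.00901% and 0%. The replicate block by title number, which does not pair the samples, gave 0%, 0.00904% and 15.5%, with 4 members in chronic against acute, where title numbers and codes coincide. All 9 samples in 1 unblocked fit gave 0.228%, 6.96% and 3.76%, and 1 member in chronic against standard, as did a mean TPM of at least 5. Rescaling gave 0.191% in acute against standard and 1 member in chronic against acute, and no filter gave 0.614% and 0.0358% in the comparisons of chronic hypoxia. Leaving out 1 replicate in turn gave 0, 0 to 2 and 0 to 2 members, and 0% to 0.302%, 0.00903% to 4.74% and 0.00901% to 2.79% of genes, each highest value without a Z library. The cause of these differences was not tested. TPM holds no depth, so counting error is unknown, and 3 libraries a group limit the precision.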
